A study of Mus musculus with 6 samples.

Results

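The AP-1 and immediate early genes described here are 10 genes of the 39179 in the deposited expression table, taken by symbol: the FOS family (Fos, Fosb, Fosl1, Fosl2), the JUN family (Jun, Junb, Jund), and Atf3, Egr1 and Ier2. They were measured in RNA from mouse pylorus, where the stomach meets the duodenum, in 3 Sox2 KO and 3 Sox2 WT libraries. Values by library are in the order of replicates 1 to 3. Sox2 KO mice carried CreER, a tamoxifen-activated Cre recombinase, at the Rosa26 locus together with Sox2 fl/fl alleles. Sox2 WT mice carried the same Sox2 fl/fl alleles and a wild-type Rosa26 locus. Both groups were of a mixed C57BL/6 x 129 background, received tamoxifen at 8 weeks of age and were collected 2 weeks later; the age label reads 8 weeks and the series text 10 weeks. The Rosa26 locus is active in most cell types, so the deletion was not limited to the epithelium, and the presence of CreER cannot be told apart from the loss of Sox2. The tissue spent 1 hour at 4 °C in a cell recovery solution before the muscle layer was pulled off, which left epithelium and mesenchyme for RNA extraction.

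AP-1 is a transcription factor made of paired bZIP proteins. JUN proteins pair with each other or with FOS proteins, while FOS proteins need a JUN partner, and the pairs bind the TPA response element TGAGTCA. Immediate early genes are transcribed within minutes of growth factor, stretch or stress signals, mostly through SRF with its TCF partners and through CREB, and their transcripts are short-lived. In gut epithelium they are known to respond to injury, to EGF receptor ligands and to the handling of tissue.

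Of the 10 genes, 7 had a promoter window of 300 bases in the RefSeq table, reaching from 250 bases before the start that RefSeq gives the gene to 50 bases after it. Those of Fos, Fosb and Atf3, which were high in the same libraries, and of Junb, the 1 gene with all Sox2 KO values above all Sox2 WT values, are shown 5′ to 3′ on the strand of the gene. Capitals mark motif matches. The Fos window is chr12:85473640-85473939 on the plus strand, the Fosb window chr7:19309996-19310295, the Atf3 window chr1:191183284-191183583 and the Junb window chr8:84978699-84978998, these 3 on the minus strand, all in GRCm38.p6. RefSeq starts can differ from the GENCODE gene bounds given with the values. The RefSeq start of Fos is the GENCODE start, that of Fosb lies 6 bases downstream of it and that of Junb 30 bases upstream. The RefSeq start of Atf3 lies 34706 bases downstream of the GENCODE start, inside the gene.
Fos: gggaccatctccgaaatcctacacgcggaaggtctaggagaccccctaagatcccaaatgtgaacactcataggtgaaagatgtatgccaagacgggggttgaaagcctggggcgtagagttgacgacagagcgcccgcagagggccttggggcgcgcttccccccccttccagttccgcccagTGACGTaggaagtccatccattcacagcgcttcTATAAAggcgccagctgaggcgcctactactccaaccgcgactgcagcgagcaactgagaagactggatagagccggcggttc
Fosb: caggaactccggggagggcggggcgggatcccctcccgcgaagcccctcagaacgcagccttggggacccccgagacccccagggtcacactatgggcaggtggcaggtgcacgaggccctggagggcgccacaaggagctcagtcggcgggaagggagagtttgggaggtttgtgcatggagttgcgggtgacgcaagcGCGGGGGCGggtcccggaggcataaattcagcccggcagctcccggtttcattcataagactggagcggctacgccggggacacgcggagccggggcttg
Atf3: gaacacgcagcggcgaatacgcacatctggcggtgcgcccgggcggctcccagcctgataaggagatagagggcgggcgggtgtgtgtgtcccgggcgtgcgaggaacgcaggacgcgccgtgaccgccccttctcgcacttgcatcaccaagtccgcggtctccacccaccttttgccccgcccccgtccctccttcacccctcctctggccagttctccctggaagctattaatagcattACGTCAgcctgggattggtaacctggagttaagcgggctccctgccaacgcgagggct
Junb: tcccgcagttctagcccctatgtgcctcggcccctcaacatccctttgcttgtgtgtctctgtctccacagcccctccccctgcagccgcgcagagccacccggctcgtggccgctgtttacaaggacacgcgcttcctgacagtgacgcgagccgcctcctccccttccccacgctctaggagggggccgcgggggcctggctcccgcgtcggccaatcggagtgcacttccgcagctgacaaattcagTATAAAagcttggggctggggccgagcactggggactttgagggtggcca

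Motifs were searched on both strands. TGACGT, the core of the cAMP response element bound by CREB and ATF proteins, lay in the Fos window from base -66 and, as ACGTCA on the other strand, in the Atf3 window from base -8, counted from the RefSeq start; 7.65% of 27018 promoters hold it. The full element TGACGTCA, which contains that core and occurs in 1.88% of promoters, was in none of the 7 windows. TGAGTCA (5.17% of promoters) and the CArG box that SRF binds (1.57%) were also in none of the 7, which says only that these letters are not in these windows. GCGNGGGCG, the letters of an EGR site, lay in the Fosb window from base -50 and in the Fosl2 window from base -79 (5.56% of promoters); the RefSeq start of Fosl2 lies 671 bases downstream of its GENCODE start. TATAAA lay in the Fos window from base -33 and in the Junb window from base 1, and 14.2% of promoters hold it. A match is a description of the sequence, and no binding was measured here.

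Sox2, a SOX-family transcription factor of progenitor cells, was at 0.342, 0.210 and 0.420 RPKM in the Sox2 KO libraries, against 11.1, 9.03 and 10.9 RPKM in the Sox2 WT libraries (log2 fold change -3.72, SE 0.147, limma adjusted p = 2.9e-04; exact two-sided permutation p = 0.1, the smallest of 3 against 3). Xist and Ddx3y showed the 3 Sox2 KO libraries and Sox2 WT replicate 1 to be male and Sox2 WT replicates 2 and 3 female, so that sex differed along with genotype. Summed over 5 marker genes, epithelium was at 3138 to 3269 RPKM in Sox2 KO and 2340 to 3765 RPKM in Sox2 WT libraries. Smooth muscle genes were still present, at 416 to 674 RPKM over 6 genes in Sox2 KO and 446 to 707 RPKM in Sox2 WT. Intestinal markers, summed over 5 genes, were at 96.9 to 101 RPKM in Sox2 KO and 70.8 to 121 RPKM in Sox2 WT libraries. Among them the enterocyte gene Sis was listed at 0 in all 6 libraries.

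All 10 genes passed the filter on low values, and 0 of them passed the test of Sox2 KO against Sox2 WT, also with any 1 library left out. limma called 4 of 14045 genes in all (0.0285%), voom on the recovered reads called 0 of the 10 as well, and 1 of the 10 had an unadjusted p under 0.05, against 3.15% of all tested genes. The median log2 fold change of the 10 was -0.08, beside 0.02 for all tested genes, with 4 positive and 6 negative values. This median was -0.45 without Sox2 KO replicate 1, and it turned to 0.044, 0.074 and 0.12 without Sox2 KO replicate 2, Sox2 KO replicate 3 and Sox2 WT replicate 3, and to 0.13 with sex as a covariate. The spread between libraries of 1 genotype was wide: their median within-group SD was 0.48 on the log2(RPKM + 0.5) scale, beside 0.18 over all tested genes, and 10 of 10 lay above that median. In bulk tissue, fewer cells of a type and less RNA per cell cannot be told apart.

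**Figure D1:**
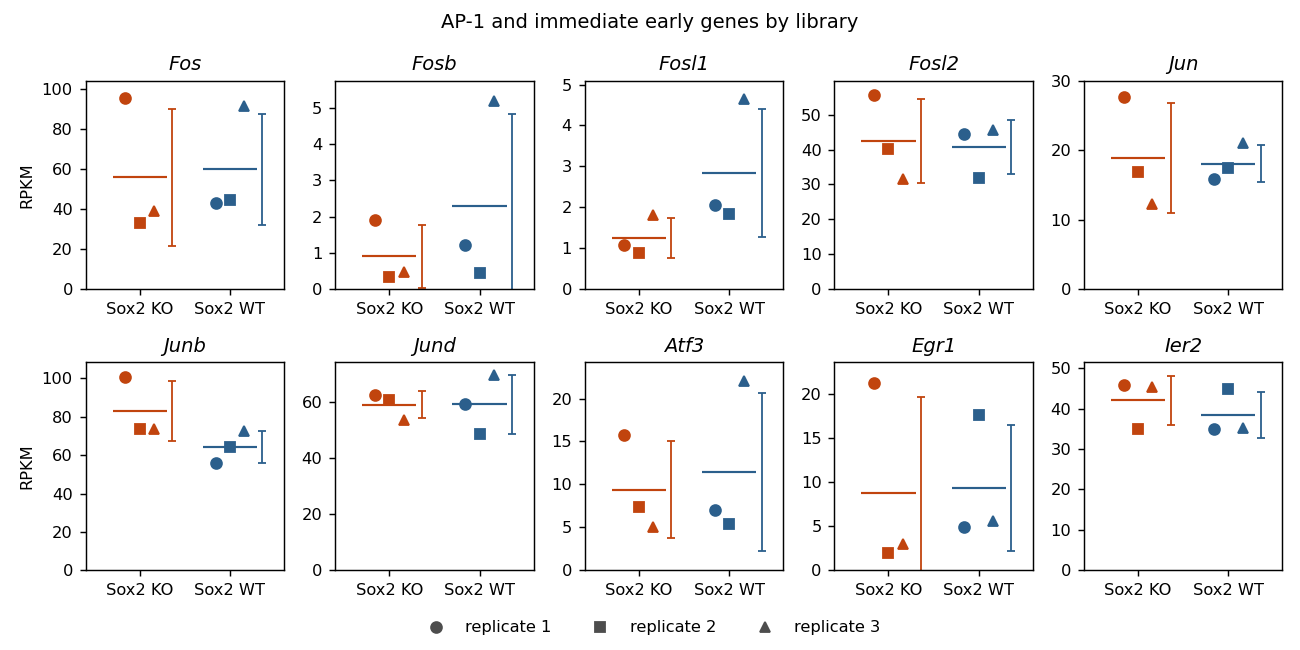
RPKM of each gene in the 3 Sox2 KO (left, red) and 3 Sox2 WT (right, blue) libraries, with a symbol per replicate, the mean as a line and the SD as a bar beside it, cut at 0 where the SD reaches below it. The groups overlap in 8 genes; in Junb the Sox2 KO values lie above 72.8 RPKM, the highest Sox2 WT value, and in Fosl1 below 1.84 RPKM, the lowest.

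Fos, which encodes c-Fos, the short-lived partner of JUN proteins (ENSMUSG00000021250, chromosome 12, 85473890 to 85477273, plus strand), was at 95.4, 33.0 and 39.0 RPKM in the Sox2 KO libraries, against 43.2, 44.6 and 91.8 RPKM in the Sox2 WT libraries. In each group 1 library stood at about the same high level, replicate 1 in Sox2 KO and replicate 3 in Sox2 WT, and the other 4 lay together. The means were 55.8 ± 34.4 and 59.9 ± 27.6 RPKM in Sox2 KO and Sox2 WT (SD, n = 3 each), with a log2 fold change of -0.17 (SE 0.444) and a limma adjusted p of 0.9995. The 95% interval of the fold change ran from 0.431 to 1.83. These values rest on at least 2252 to 6672 reads per library, so that counting error is small beside the spread.

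Fosb, a paralog of Fos (ENSMUSG00000003545, chromosome 7, 19302696 to 19310051, minus strand), was much lower, at 1.90, 0.321 and 0.472 RPKM in the Sox2 KO libraries, against 1.23, 0.428 and 5.20 RPKM in the Sox2 WT libraries. The highest Sox2 WT library, replicate 3, stood 12.1 times above the lowest, and the highest Sox2 KO library, replicate 1, 5.91 times above the lowest. The groups overlapped, and the log2 fold change of -0.75 (SE 0.679, limma adjusted p = 0.9995) was about the size of its error. It was -0.028 without Sox2 WT replicate 3 and -1.34 without Sox2 WT replicate 2. Its within-group SD of 1.11 was larger than that of 99.5% of tested genes.

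Fosl1 encodes FRA-1, a FOS protein linked to epithelial migration (ENSMUSG00000024912, chromosome 19, 5447547 to 5455946, plus strand). It was at 1.06, 0.869 and 1.80 RPKM in the Sox2 KO libraries, against 2.04, 1.84 and 4.65 RPKM in the Sox2 WT libraries. All Sox2 KO values lay below all Sox2 WT values, as they did in 2.99% of tested genes, by a margin of 1.80 against 1.84 RPKM. The log2 fold change was -0.88 (SE 0.332, 95% interval -1.66 to -0.10, unadjusted p = 0.0315, limma adjusted p = 0.9995). The reads behind it were few: at least 104 in Sox2 KO replicate 3, with an exact 95% Poisson interval of 1.47 to 2.18 RPKM, and 88 in Sox2 WT replicate 2, with an interval of 1.48 to 2.27 RPKM. Intervals of this kind cover counting error only. The groups overlapped when values were scaled to the reads recovered in genes, a choice made after seeing the data, and the log2 fold change was -0.52 without Sox2 WT replicate 3 and -0.58 against the male Sox2 WT library alone.

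In GENCODE, 1163 exonic bases of Fosl1 lie opposite Ccdc85b, a gene that was at 18.4, 20.4 and 24.1 RPKM in the Sox2 KO libraries, against 20.4, 25.4 and 17.4 RPKM in the Sox2 WT libraries. Sox2 WT replicate 3, the highest library for Fosl1, was the lowest for Ccdc85b. How far reads of one were counted for the other was not tested. The RPKM imply a length of 1704 bases for Fosl1, beside 2033 exonic bases in GENCODE. The gene models that were counted may thus differ, and with them the shared bases given here and for Jun, Junb and Jund.

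Fosl2 encodes FRA-2, the more stable FOS protein (ENSMUSG00000029135, chromosome 5, 32135801 to 32157842, plus strand). It was at 55.6, 40.2 and 31.6 RPKM in the Sox2 KO libraries, against 44.5, 31.7 and 45.7 RPKM in the Sox2 WT libraries. The groups overlapped over nearly their whole range (log2 fold change 0.04, SE 0.230, limma adjusted p = 0.9995), and the sign of this value turned under quantile normalization, to -0.01.

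Jun encodes c-Jun, the JUN protein with the strongest transactivation (ENSMUSG00000052684, chromosome 4, 95049034 to 95052222, minus strand). It was at 27.8, 16.9 and 12.3 RPKM in the Sox2 KO libraries, against 15.8, 17.5 and 21.02 RPKM in the Sox2 WT libraries. Sox2 KO held both the highest and the lowest library, and the log2 fold change was -0.00478 (SE 0.276, 95% interval -0.65 to 0.64). An antisense transcript, which shares 232 exonic bases with Jun, was at 0.0864 to 0.205 RPKM in Sox2 KO and 0.101 to 0.211 RPKM in Sox2 WT libraries.

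Junb encodes a JUN protein that in many settings acts as a weaker activator than c-Jun (ENSMUSG00000052837, chromosome 8, 84974484 to 84978718, minus strand). It was at 101, 73.7 and 73.8 RPKM in the Sox2 KO libraries, against 55.9, 64.1 and 72.8 RPKM in the Sox2 WT libraries. All Sox2 KO values lay above all Sox2 WT values, as they did in 4.09% of tested genes. The means were 82.8 ± 15.6 and 64.3 ± 8.44 RPKM in Sox2 KO and Sox2 WT (SD, n = 3 each), with a log2 fold change of 0.36 (SE 0.166, 95% interval -0.03 to 0.74) and a limma adjusted p of 0.9995. The log2 fold change was 0.21 without Sox2 KO replicate 1 and 0.55 against the male Sox2 WT library alone. Prdx2, which shares 173 exonic bases with Junb on the other strand, was at 33.4, 36.8 and 43.0 RPKM in the Sox2 KO libraries, against 33.4, 44.3 and 32.9 RPKM in the Sox2 WT libraries.

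Jund, the JUN gene known for steady expression in resting cells (ENSMUSG00000071076, chromosome 8, 70698949 to 70700616, plus strand), was at 62.6, 60.8 and 53.6 RPKM in the Sox2 KO libraries, against 59.1, 48.7 and 69.5 RPKM in the Sox2 WT libraries. Its means differed least of the 10 genes relative to their size, at 59.0 ± 4.76 and 59.1 ± 10.4 RPKM in Sox2 KO and Sox2 WT (SD, n = 3 each). The 95% interval of the fold change, 0.788 to 1.29, was the narrowest of the 10 genes. The log2 fold change of 0.01 (SE 0.151) turned to -0.01 under median-of-ratios rescaling and to -0.04 under quantile normalization. A predicted antisense gene that shares 877 exonic bases with it was at no more than 1.80 RPKM in any library.

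Summed over its 4 genes, the FOS family was at 154, 74.4 and 72.9 RPKM in the Sox2 KO libraries, against 91.0, 78.6 and 147 RPKM in the Sox2 WT libraries. The sum over the 3 JUN genes was 191, 151 and 140 RPKM in Sox2 KO, against 131, 130 and 163 RPKM in Sox2 WT. The highest library exceeded the lowest 2.11 times for the FOS sum and 1.47 times for the JUN sum. Neither sum nor their ratio differed beyond the spread between libraries in exact two-sided permutation tests of 3 against 3 (p = 0.8, 0.5 and 0.4, Benjamini-Hochberg adjusted over these 3 comparisons 0.8, 0.75 and 0.75, smallest p possible 0.1). The log2 ratio of the FOS means, -0.07, turned to 0.10, 0.11 and 0.24 without Sox2 KO replicate 2, Sox2 KO replicate 3 and Sox2 WT replicate 3.

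Within the JUN family, Junb made up 52.7%, 48.7% and 52.8% of the summed RPKM in the Sox2 KO libraries, against 42.7%, 49.2% and 44.6% in the Sox2 WT libraries. Sox2 KO replicate 2 lay inside the Sox2 WT range. Jund made up 37.1 ± 3.88% in Sox2 KO and 41.7 ± 3.96% in Sox2 WT, and Jun 11.5 ± 2.89% and 12.8 ± 0.674% (SD, n = 3 each). The FOS sum was almost wholly Fos and Fosl2 in every library: the highest shares of Fosb and Fosl1, 3.53% and 3.16%, were in Sox2 WT replicate 3. The sums and shares of both families depend on the gene lengths behind the RPKM, which can differ from GENCODE exon lengths. The RPKM imply 1679, 1840 and 2879 bases for Jun, Junb and Jund, beside 3189, 2301 and 1668 exonic bases in GENCODE.

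**Figure D2:**
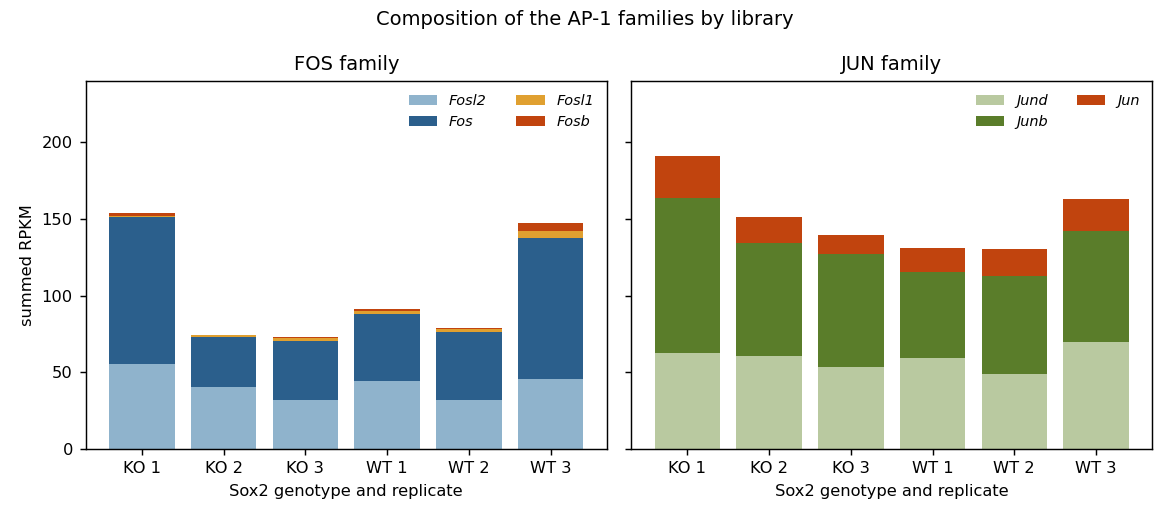
Summed RPKM of the FOS family (left) and the JUN family (right) in each library, stacked by gene, with Sox2 KO libraries left of Sox2 WT. Sox2 KO replicate 1 and Sox2 WT replicate 3 hold the highest FOS sums, 154 and 147 RPKM, through Fos, while Jund lies between 48.7 and 69.5 RPKM.

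Atf3, a stress-induced bZIP protein of the ATF family that can pair with JUN proteins (ENSMUSG00000026628, chromosome 1, 191170296 to 191218039, minus strand), was at 15.7, 7.39 and 5.03 RPKM in the Sox2 KO libraries, against 7.01, 5.35 and 22.1 RPKM in the Sox2 WT libraries. The high libraries were again Sox2 KO replicate 1 and Sox2 WT replicate 3. The log2 fold change of -0.16 (SE 0.563) turned to 0.43 without Sox2 WT replicate 3 and to 0.18 without Sox2 KO replicate 3. Its within-group SD was 0.92, above that of 98.9% of tested genes.

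Egr1 encodes a zinc finger factor induced through SRF and the MAP kinase pathway (ENSMUSG00000038418, chromosome 18, 34859823 to 34864984, plus strand). It was at 21.3, 1.95 and 2.97 RPKM in the Sox2 KO libraries, against 4.90, 17.6 and 5.56 RPKM in the Sox2 WT libraries. Here the high libraries were Sox2 KO replicate 1 and Sox2 WT replicate 2, not replicate 3. The highest Sox2 KO library stood 10.9 times above the lowest and the highest Sox2 WT library 3.60 times. The within-group SD of 1.38 exceeded that of 99.8% of tested genes, and the 95% interval of the fold change ran from 0.174 to 2.64 (log2 fold change -0.56, SE 0.836, limma adjusted p = 0.9995).

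Ier2, an immediate early gene for a nuclear protein (ENSMUSG00000053560, chromosome 8, 84661331 to 84662852, minus strand), was at 45.9, 34.9 and 45.2 RPKM in the Sox2 KO libraries, against 34.9, 44.9 and 35.2 RPKM in the Sox2 WT libraries. Its libraries lay at about 35 or 45 RPKM in both groups, with a log2 fold change of 0.13 (SE 0.156, limma adjusted p = 0.9995). By mean RPKM, Junb was highest, followed by Jund, Fos, Fosl2 and Ier2, then Jun, then Atf3 and Egr1, and last Fosl1 and Fosb. This order too depends on the gene lengths behind the RPKM. Neighbours in this order overlapped across libraries, except that all Ier2 values lay above all Jun values.

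**Figure D3:**
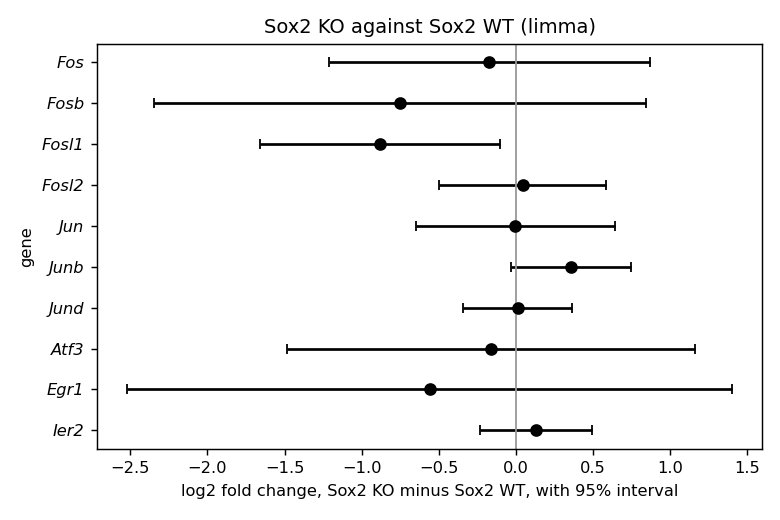
Log2 fold change of each gene, log2(RPKM + 0.5) in Sox2 KO minus Sox2 WT, with its 95% interval from limma. Only the interval of Fosl1, -1.66 to -0.10, leaves out 0, and the intervals of Egr1 and Fosb are the widest.

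By library, 9 of the 10 genes lay above their own 6-library mean in Sox2 KO replicate 1 and 8 in Sox2 WT replicate 3, against 2 in each of Sox2 KO replicates 2 and 3, 4 in Sox2 WT replicate 1 and 3 in Sox2 WT replicate 2. Over all tested genes this share was between 49.1% and 52.3% in the Sox2 KO libraries and 41.6% in Sox2 WT replicate 1, the lowest of all. The median deviation of the 10 genes was 0.53, -0.22 and -0.40 in the Sox2 KO libraries, and -0.18, -0.21 and 0.23 in the Sox2 WT libraries. Fos, Fosb, Fosl2, Jun, Junb, Jund and Atf3 were above their mean in both Sox2 KO replicate 1 and Sox2 WT replicate 3, as were 29.7% of tested genes. Fosl1 was below its mean in Sox2 KO replicate 1, and Egr1 and Ier2 below theirs in Sox2 WT replicate 3.

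**Figure D4:**
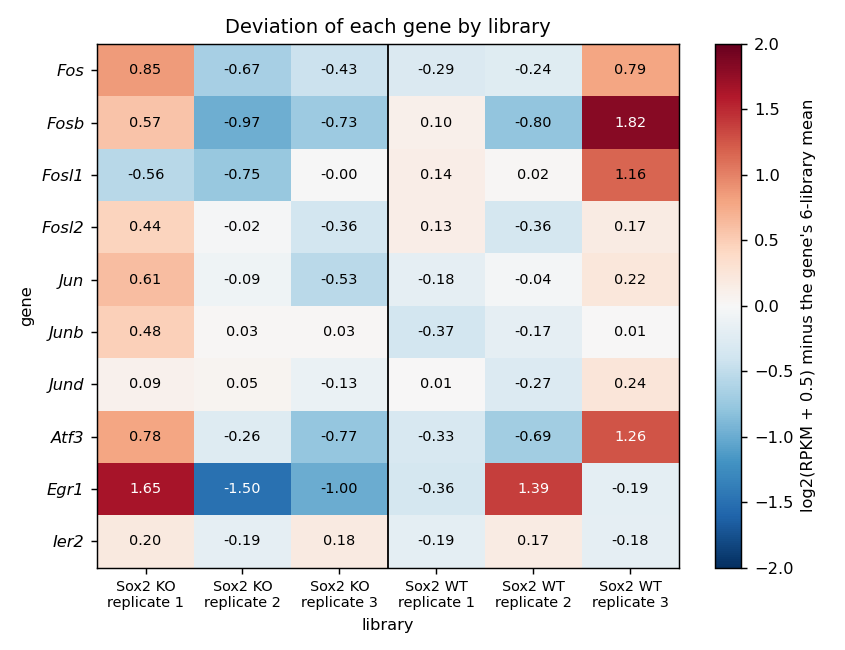
Log2(RPKM + 0.5) of each gene minus its mean over the 6 libraries, with Sox2 KO libraries left of Sox2 WT; red is above and blue below the mean. Most genes are high in Sox2 KO replicate 1 and Sox2 WT replicate 3, while Egr1 is high in Sox2 KO replicate 1 (1.65) and Sox2 WT replicate 2 (1.39).

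Marker levels of some cell types moved with this pattern, and those of others did not. Antral and surface mucous markers, summed over 5 genes, were at 101200, 83150 and 71670 RPKM in the Sox2 KO libraries, against 66390, 61530 and 101100 RPKM in the Sox2 WT libraries, so that the same pair of libraries was highest. Smooth muscle markers were lowest in that pair, at 416 RPKM in Sox2 KO replicate 1 and 446 RPKM in Sox2 WT replicate 3, within 416 to 674 RPKM in Sox2 KO and 446 to 707 RPKM in Sox2 WT. Leukocyte markers, over 5 genes, were highest in the pair, at 82.3 and 98.5 RPKM, within 44.7 to 82.3 RPKM in Sox2 KO and 46.3 to 98.5 RPKM in Sox2 WT. Epithelial markers were also highest in the pair, at 3269 and 3765 RPKM, as were intestinal markers, at 101 and 121 RPKM. In Sox2 KO both differed little between libraries, within 3138 to 3269 RPKM and 96.9 to 101 RPKM. Parietal cell markers, over 3 genes, did not follow it: they were highest in Sox2 WT replicate 2, at 3473 RPKM, within 1083 to 2003 RPKM in Sox2 KO and 580 to 3473 RPKM in Sox2 WT. Erythrocyte markers, over 2 genes, were highest in Sox2 KO replicate 2. They lay within 4.58 to 8.50 RPKM in Sox2 KO and 2.83 to 3.815 RPKM in Sox2 WT. Fibroblast and endothelial markers split the pair. They were at 440 and 21.5 RPKM in Sox2 KO replicate 1, the highest of Sox2 KO, and at 355 and 14.3 RPKM in Sox2 WT replicate 3, the lowest of all. Markers of enteric neurons and glia were lowest in Sox2 KO replicate 1, at 2.03 RPKM, and highest in Sox2 WT replicate 3, at 2.55 RPKM. The part of these differences in the values of the 10 genes was not tested.

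The genes most like Fos in pattern, by mean absolute difference of log2 deviations over the 6 libraries among 7742 genes whose mean RPKM reached 5, were Areg, Dusp5 and Cxcl16. Areg, which encodes the EGF receptor ligand amphiregulin, was at 39.4, 15.0 and 18.7 RPKM in the Sox2 KO libraries, against 21.7, 23.1 and 40.8 RPKM in the Sox2 WT libraries, and differed from Fos by 0.10 per library on average, beside a median of 0.54 over the genes compared. Dusp5, a nuclear phosphatase of ERK, differed by 0.19 and the chemokine gene Cxcl16 by 0.21. For Jun the nearest were Gpr64, Rhobtb1 and Bmp2, a BMP ligand, at 0.06, 0.07 and 0.08 (median 0.29). For Egr1 the nearest were an immunoglobulin kappa gene (ENSMUSG00000094335) at 0.45, Cyr61 at 0.63 and the clock output gene Dbp at 0.65 (median 1.02). All were picked as the nearest of 7742 genes, so values under the median follow from the choice. Cyr61, a secreted matrix protein gene, was at 8.18, 3.64 and 3.53 RPKM in the Sox2 KO libraries, against 5.30, 9.58 and 3.76 RPKM in the Sox2 WT libraries.

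Of 44 other immediate early genes listed, 37 were tested, and 0 passed in either direction; 15 had a positive and 22 a negative log2 fold change, with a median of -0.05. They were mostly high in Sox2 KO replicate 1, where 31 of 37 lay above their own mean, against 8 and 6 in Sox2 KO replicates 2 and 3, and 7, 23 and 22 in the Sox2 WT libraries. Zfp36, which encodes a protein that destabilizes AU-rich transcripts, was at 59.7, 30.2 and 26.4 RPKM in the Sox2 KO libraries, against 24.0, 36.6 and 36.8 RPKM in the Sox2 WT libraries. Dusp1, a MAP kinase phosphatase gene, was at 9.22, 4.20 and 3.27 RPKM in the Sox2 KO libraries, against 3.66, 5.27 and 7.43 RPKM in the Sox2 WT libraries. Both were highest in Sox2 KO replicate 1. The nuclear receptor gene Nr4a1 was at 5.48, 1.58 and 2.62 RPKM in the Sox2 KO libraries, against 2.99, 6.13 and 2.11 RPKM in the Sox2 WT libraries, with Sox2 KO replicate 1 and Sox2 WT replicate 2 high, as for Egr1.

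The most abundant of these genes were Klf4 and Klf6, zinc finger factors, and the antiproliferative gene Btg2, at log2 fold changes of -0.16 (SE 0.209), -0.16 (SE 0.277) and 0.25 (SE 0.261). The smallest p-values were those of Nfkbiz, an NF-kB regulator, and Ctgf, a secreted matrix protein gene. Nfkbiz was at 9.95, 7.92 and 9.32 RPKM in the Sox2 KO libraries, against 6.40, 6.55 and 7.01 RPKM in the Sox2 WT libraries (log2 fold change 0.41, SE 0.116, limma adjusted p = 0.938). All its Sox2 KO values lay above all its Sox2 WT values, as in 2 of the 37 genes and 4.09% of all tested genes. Ctgf had a log2 fold change of -0.46 (SE 0.185, limma adjusted p = 0.9995). Ier3, Myc and Ptgs2 had log2 fold changes of 0.02, -0.04 and -0.19.

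Of 24 other bZIP partners 22 were tested, and 0 passed, with 10 positive and 12 negative log2 fold changes and a median of -0.01. Nfe2l2, Atf4 and Cebpg, stress-response factors, were the most abundant, at 0.20 (SE 0.144), -0.01 (SE 0.198) and -0.14 (SE 0.139), and Cebpa and Batf2 had the smallest p, at -0.21 (SE 0.129) and 0.24 (SE 0.167). The 19 upstream kinases and SRF factors were all tested, 0 passed, 10 were positive and 9 negative, and the median was 0.01. Srf was at 11.9, 11.4 and 12.9 RPKM in the Sox2 KO libraries, against 11.8, 10.9 and 13.0 RPKM in the Sox2 WT libraries, a narrow range beside that of Egr1. The kinase genes Mapk3, Map2k1 and Rps6ka1 were at 0.09 (SE 0.129), -0.06 (SE 0.204) and 0.05 (SE 0.112), and Rps6ka3 and the TCF gene Elk1 had the smallest p, at -0.19 (SE 0.121) and -0.17 (SE 0.123). Egfr, the receptor gene, was at 9.90, 6.36 and 4.28 RPKM in the Sox2 KO libraries, against 5.40, 3.26 and 7.22 RPKM in the Sox2 WT libraries, highest in the same pair of libraries as Fos.

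Of 7 EGF receptor ligands 5 were tested, 0 passed, and 1 was positive and 4 negative, with a median log2 fold change of -0.26. That median was -0.0098 without Sox2 KO replicate 2, -0.0050 without Sox2 WT replicate 3 and 0.040 with sex as a covariate. Areg was at -0.29 (SE 0.381), Btc at 0.07 (SE 0.141), Tgfa at -0.00276 (SE 0.184), Hbegf at -0.26 (SE 0.201) and Ereg at -0.54 (SE 0.275, limma adjusted p = 0.9995). Of 20 effector genes linked to AP-1, 15 were tested, 0 passed, 11 were positive and 4 negative, and the median was 0.09. Timp1, an inhibitor of matrix metalloproteinases, was at 3.14, 3.39 and 3.65 RPKM in the Sox2 KO libraries, against 2.48, 2.06 and 1.87 RPKM in the Sox2 WT libraries (log2 fold change 0.57, SE 0.131, limma adjusted p = 0.611). All Sox2 KO values of Timp1 lay above all its Sox2 WT values, as in 1 of the 15 genes and 4.09% of all tested genes. The cyclin gene Ccnd1 was at -0.31 (SE 0.143), and the abundant genes S100a6, Krt19 and Spp1 at 0.20 (SE 0.352), 0.12 (SE 0.285) and -0.17 (SE 0.246).

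All 15 heat shock genes were tested, 0 passed, and 3 were positive and 12 negative, with a median log2 fold change of -0.06. In Sox2 KO replicate 1, 5 of 15 lay above their mean, with a median deviation of -0.09, beside 0.34 for the 37 immediate early genes. In Sox2 WT replicate 3 the order was the other way, at 0.10 for the heat shock genes and 0.02 for the 37. The median deviation of the 10 AP-1 and immediate early genes in that library was 0.23, above both. The 5 genes, Hspa1a, Hspa1b, Hspa8, Dnajb1 and Bag3, were also above their mean in Sox2 WT replicate 3, where 8 of 15 were. The difference between the lists was not tested. Hsph1, a cytosolic chaperone gene, was at 6.05, 5.46 and 5.94 RPKM in the Sox2 KO libraries, against 10.2, 7.52 and 8.00 RPKM in the Sox2 WT libraries (log2 fold change -0.51, SE 0.133, limma adjusted p = 0.835). The chaperone genes Hsp90ab1, Hspa5 and Hspd1 were at -0.06 (SE 0.147), -0.04 (SE 0.151) and -0.05 (SE 0.165), and the inducible Hspa1b, which has a near-identical copy, at -0.24 (SE 0.227).

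**Figure D5:**
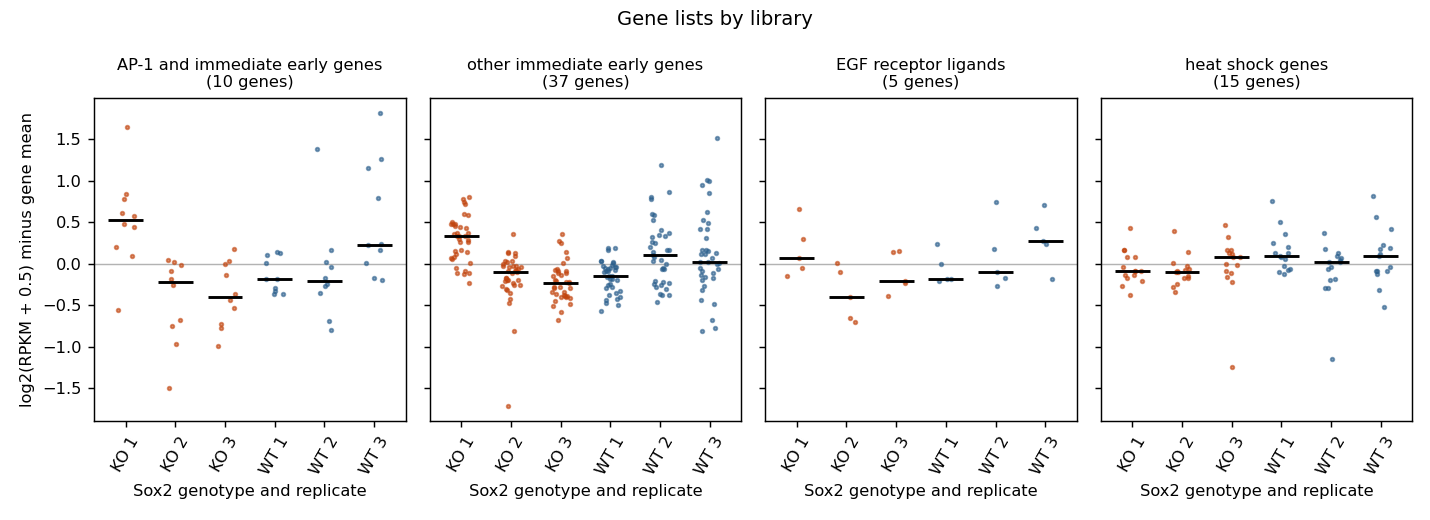
Log2(RPKM + 0.5) minus the gene's 6-library mean for the tested genes of 4 lists in each library, with Sox2 KO libraries left of Sox2 WT, points for genes and black lines for medians. The median of the 37 other immediate early genes is highest in Sox2 KO replicate 1, at 0.34, where that of the 15 heat shock genes is -0.09. In Sox2 WT replicate 3 these medians are 0.02 and 0.10, and that of the 10 AP-1 and immediate early genes is 0.23.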

How the data were processed

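RNA was sequenced from 3 Sox2 KO and 3 Sox2 WT libraries. The values are RPKM (reads scaled to gene length and library size), computed and deposited by the authors for 39179 Ensembl genes; the series table equals the single-library tables. The submitters' processing notes name CASAVA 1.7, STAR and the build mm10. For the counting tool, annotation, filters and strandedness the sources used here give nothing, so reads of a gene and an overlapping partner cannot be told apart. Coordinates come from GENCODE M21 (GRCm38, the assembly of mm10) and promoter windows from RefSeq (GRCm38.p6).

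Whole reads were recovered from the RPKM as the smallest whole numbers that fit all 6 libraries of a gene (100% of 23538 genes above 0, within 0.0001 reads). A common factor cannot be seen in them, so they are lower limits. They sum to between 29661961 and 32455361 reads in Sox2 KO and between 21923203 and 27432691 in Sox2 WT libraries. The gene lengths behind the RPKM were inferred from these reads. The inference used the library size most often implied by GENCODE lengths, given by 102 of 11801 genes with 100 or more reads.

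The test was limma (version 3.58.1, R 4.3.3) on log2(RPKM + 0.5), with the trend option, over the 14045 genes whose mean RPKM reached 0.5, 1 row per symbol. Differences are Sox2 KO minus Sox2 WT; this scale understates changes of low genes. Benjamini-Hochberg adjustment ran over all genes tested, with a threshold of 0.05. The fit was checked on simulated reads with equal depth and the same dispersion for every gene. That check does not cover genes as variable as Egr1 or Fosb. Sums of families were compared by exact two-sided permutation tests. Whether the libraries came from separate animals is not stated in the labels. Sox2 WT replicate 1 was male and replicates 2 and 3 female, so the Sox2 WT libraries did not all come from the same animal. The p-values compare the difference between groups with the spread between these libraries, and part of that spread may be technical.

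The 10 genes, the 6 gene lists and the tests were chosen with earlier results of these data known. Named genes are the 10 members, Sox2, the 3 highest and the 2 of smallest p in each list, and the 3 genes most like Fos, Jun and Egr1 in pattern. Dusp1, Nr4a1, Zfp36, Ier3, Myc, Ptgs2, Srf and Egfr were named after their values were seen. Alternatives covered the pseudocount, the filter, scaling, the variance model, sample weights, a replicate block, sex, the rows kept, the threshold and each library left out; voom on the recovered reads and other scalings of the overlap counts were added after seeing the data. Deviations of same-numbered libraries correlated weakly, which cannot tell whether the numbers pair them.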

Additional observations from a re-analysis of the deposited data

How the results depend on the processing

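In 20 other settings, 0 of 200 recomputed log2 fold changes of the 10 genes passed the threshold, 167 kept their direction and 33 turned. Fosl1 stayed negative (-1.19 to -0.52) and Junb positive (0.21 to 0.55) in all of them, and the lowest adjusted p of any of the 10 genes was 0.0572, for Fosl1 with sample quality weights, a fit that stopped before converging. Jund turned to -0.012 under median-of-ratios rescaling, -0.044 under quantile normalization and -0.061 under voom, and Fosl2 to -0.00996 under quantile normalization and -0.029 under voom. With sample quality weights Fosl2 was -0.058 and Ier2 -0.072. With sex as a covariate, and equally with male libraries alone, Fos was 0.20, Jun 0.18, Atf3 0.25, Egr1 0.079, Fosl2 -0.11 and Jund -0.00575; Sox2 was -3.82 in males alone. That fit holds 3 Sox2 KO libraries against 1 Sox2 WT library, which is assumed to vary like the others, so its adjusted p for Sox2 (0.154) and its count of calls say nothing of stability. With 1 library left out, the ranges were -0.64 to 0.18 for Fos, -0.31 to 0.26 for Jun, -0.12 to 0.13 for Jund, -0.17 to 0.23 for Fosl2, -0.59 to 0.43 for Atf3, -1.34 to -0.028 for Fosb, -1.53 to 0.0497 for Egr1 and -0.52 to 0.24 for the FOS sum. Over the same fits the median was -0.45 to 0.12 for the 10 genes, -0.20 to 0.067 for the other immediate early genes, -0.44 to -0.0050 for the EGF receptor ligands, -0.11 to 0.23 for the effector genes and -0.11 to -0.0022 for the heat shock genes. The medians of bZIP partners and of upstream genes stayed within -0.055 and 0.039. The cause was not tested.

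The 4 genes past the threshold became 181 with sample quality weights, 1 with sex as a covariate, 0 in males alone, 8 under voom, 8 at an adjusted p under 0.1 and between 1 and 8 with 1 library left out, the 8 without Sox2 KO replicate 1. Sample quality weights called 2 effector genes linked to AP-1 and 1 heat shock gene. Scaled to recovered reads, the number of the 10 genes with all Sox2 KO values below all Sox2 WT values was 0. With the replicate number as a block 1 gene passed. The deviations of same-numbered libraries correlated at 0.00879, 0.097 and -0.074 for numbers 1 to 3. Libraries of unlike number correlated at -0.158 to 0.165. With 3 libraries per group these values cannot tell whether the numbers pair the libraries. Depth limits Fosl1 and Fosb, with at least 43 and 35 reads in their lowest libraries.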
